A study of Mus musculus with 24 samples.

Results

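The molecular chaperones encoded by the Hsp, Dnaj and Cct genes were followed through adipocyte differentiation of 3T3-L1 cells, a mouse pre-adipocyte line, with and without the SUMOylation inhibitor ML-792. Members were chosen by symbol, with earlier results of these data known. They are the type A, B and C J-domain genes (Dnaja, Dnajb and Dnajc) and the Hspa, Hspb, Hspd, Hspe, Hsph and Hsp90 genes. The chaperonin subunits Cct2, Cct3, Cct4, Cct5, Cct7 and Cct8 are also members. No symbol Cct6 matched, so the CCT members do not cover the whole ring. The choice gave 76 of the 26995 genes in the count tables. Each is represented by the RefSeq 3′UTR entry with the highest mean total count, and 13 of them had a further entry tied with it. The study collected 24 libraries in 8 conditions of 3 replicates (A, B and C), described as biological replicates. They were collected at day -2 (pre-adipocytes, before induction) and at days 1, 3 and 7 of differentiation. Cells received either the vehicle DMSO or 0.5 µM ML-792, which blocks the SUMO-activating enzyme SAE1/2, and how long the day -2 libraries had been exposed is not given in the sources used here. Differentiation was induced with dexamethasone, IBMX, insulin and serum and continued with insulin, and every culture, both controls and treated, was labelled with 100 µM 4-thiouridine for 45 minutes before harvest. Each library gave 2 counts per gene, the total reads (QuantSeq, which reads the end of polyadenylated RNA) and the labelled reads, those with at least 1 T to C conversion (SLAMseq, which marks RNA made during the labelling).

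Chaperones bind proteins that are not yet, or no longer, folded. HSP70 proteins work in cycles driven by ATP, in which J-domain proteins deliver the client and start ATP hydrolysis and HSP110 proteins such as Hsph1 exchange the nucleotide, while HSP90 acts on later folding states and small HSPs hold clients without ATP. The barrel-shaped chaperonins enclose their clients, the CCT ring in the cytosol (actin and tubulin are its best known clients) and the Hspd1/Hspe1 pair in mitochondria, and the endoplasmic reticulum (ER) has its own HSP70, Hspa5 (BiP), and HSP90, Hsp90b1. Heat shock factors bind repeats of the unit GAA in chaperone promoters, and the unfolded protein response of the ER acts through the ER stress element.

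Promoters of the members were searched for these elements where a match was found, and most of those searched held none of them. Of the 76 members, 62 were matched by symbol to RefSeq promoters of GRCm38.p6, 81 in all. Each promoter ran from 250 bases before to 50 bases after the transcription start. The unmatched members, Cct4, Dnajc2, Dnajc5, Dnajc11, Dnajc12, Dnajc18, Dnajc22, Dnajc30, Hsp90aa1, Hsp90ab1, Hspa8, Hspa9, Hspa13 and Hspb2, were not searched. The first motif, a heat shock element of 2 facing units (GAANNTTC or TTCNNGAA, searched on both strands, overlaps counted), was in 19 of the 81 promoters (23.5%) of 17 members and in 15.1% of all 32851 promoters of that length. The form with 3 units (GAANNTTCNNGAA or TTCNNGAANNTTC), which holds the first motif within it, was in 6 promoters of 4 members, Dnajb6, Hspd1, Hspe1 and Hsph1 (Dnajb6 was chosen for naming after its promoter was seen), and in 0.603% of all promoters. The ER stress element (CCAAT, any 9 bases, CCACG, on both strands) was in 3 member promoters, those of Dnajc3, Hsp90b1 and Hspa5, and in 0.119% of all promoters. The Dnajb6 promoters overlap and hold the same run of 3 units, as do those of Hsph1, and Hspd1 and Hspe1 share a run. The 6 promoters with this form are therefore not 6 separate sites. A match is a run of letters and not evidence of binding. The 6 promoters shown were picked because Hsph1 and Hspa1b changed with ML-792, the divergent Hspe1 and Hspd1 share 1 promoter region, and Hspa5, Hsp90b1 and Dnajc3 carry the ER element but differ in their course. Each is written 5′ to 3′ on the gene's own strand, in GRCm38.p6, from 250 bases before the start to 30 bases after it, with the heat shock elements (first 3) or ER stress elements (last 3) in capitals: Hsph1 at chr5:149636286-149636565 (minus strand), Hspe1 at chr1:55087898-55088177 (plus strand), Hspa1b at chr17:34959209-34959488 (minus strand), Hspa5 at chr2:34771840-34772119 (plus strand), Hsp90b1 at chr10:86705415-86705694 (minus strand) and Dnajc3 at chr14:118937682-118937961 (plus strand).
Hsph1: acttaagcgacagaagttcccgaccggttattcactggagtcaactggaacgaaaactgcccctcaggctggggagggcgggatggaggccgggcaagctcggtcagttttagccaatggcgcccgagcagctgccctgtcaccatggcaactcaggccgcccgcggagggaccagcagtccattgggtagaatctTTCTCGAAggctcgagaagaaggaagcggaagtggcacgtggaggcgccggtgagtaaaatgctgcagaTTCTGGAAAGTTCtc
Hspe1: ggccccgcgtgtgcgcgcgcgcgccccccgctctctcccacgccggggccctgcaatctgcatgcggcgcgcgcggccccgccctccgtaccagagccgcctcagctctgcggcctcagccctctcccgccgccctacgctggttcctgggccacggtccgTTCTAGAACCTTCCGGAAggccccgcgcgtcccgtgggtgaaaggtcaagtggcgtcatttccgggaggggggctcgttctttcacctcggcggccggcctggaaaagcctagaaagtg
Hspa1b: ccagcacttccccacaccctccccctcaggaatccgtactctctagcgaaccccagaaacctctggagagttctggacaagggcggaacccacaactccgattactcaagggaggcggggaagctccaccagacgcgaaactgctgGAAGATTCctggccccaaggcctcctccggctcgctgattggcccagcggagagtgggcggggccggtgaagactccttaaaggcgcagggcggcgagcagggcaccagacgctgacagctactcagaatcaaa
Hspa5: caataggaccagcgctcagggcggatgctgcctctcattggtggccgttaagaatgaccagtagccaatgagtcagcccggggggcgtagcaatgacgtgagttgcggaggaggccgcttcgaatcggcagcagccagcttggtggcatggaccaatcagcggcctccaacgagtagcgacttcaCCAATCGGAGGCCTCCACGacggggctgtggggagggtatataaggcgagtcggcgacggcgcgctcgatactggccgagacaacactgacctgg
Hsp90b1: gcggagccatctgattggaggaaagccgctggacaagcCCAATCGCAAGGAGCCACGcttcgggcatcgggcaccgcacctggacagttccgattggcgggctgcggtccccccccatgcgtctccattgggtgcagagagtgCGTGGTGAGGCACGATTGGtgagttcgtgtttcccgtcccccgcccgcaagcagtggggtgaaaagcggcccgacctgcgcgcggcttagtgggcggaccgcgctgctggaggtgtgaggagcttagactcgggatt
Dnajc3: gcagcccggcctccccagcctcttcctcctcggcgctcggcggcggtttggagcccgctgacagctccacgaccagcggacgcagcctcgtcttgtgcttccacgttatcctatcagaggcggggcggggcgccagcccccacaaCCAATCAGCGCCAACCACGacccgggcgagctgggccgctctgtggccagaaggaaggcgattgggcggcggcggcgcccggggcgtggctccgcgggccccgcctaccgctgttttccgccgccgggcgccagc

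In Hspe1 the 3 overlapping heat shock elements began 89 bases before the start. The Hspd1 promoter that carries the same run lies on the other strand at chr1:55087903-55088182, where the run begins 144 bases before the start of Hspd1. In Hsph1, 1 element began 54 bases before the start and a run of 3 units began 15 bases after it. The single element of Hspa1b began 104 bases before the start, and the ER stress elements began 65 bases before it in Hspa5, 105 in Dnajc3, and 212 and 107 in Hsp90b1.

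Depth ran from 13554718 to 27013352 total reads and from 115709 to 820046 labelled reads per library, so small labelled counts limit what could be tested. After the filter on low counts 65 members could be tested in total reads and 40 in labelled reads. The 11 members outside the total test (Dnajb3, Dnajb7, Dnajb8, Dnajb13, Dnajc6, Hspa1a, Hspa1l, Hspb1, Hspb3, Hspb7 and Hspb9) were listed at low counts throughout, and a member that passes such a filter through its high group alone had to differ. Replicate B stood apart from A and C in every condition: the median absolute log2 difference over the tested members was 0.145 to 0.228 between A and C, 0.243 to 0.408 between A and B and 0.237 to 0.427 between B and C. Replicate B was the highest of the 3 replicates in all 8 conditions for 8 members and the lowest for 3, against 0 and 1 for A and 3 and 3 for C. The calls below are therefore given with and without each replicate letter where this changes them. Adipocyte markers (Adipoq, Fabp4, Plin1 and 4 others) summed to 22424 to 23744 normalized reads at day -2 and 645923 to 733623 at day 7 in DMSO, while the 7 fibroblast and pre-adipocyte markers summed to 494555 to 592564 at day -2 and 45995 to 74855 at day 7. Of the other cell types, the 4 macrophage and leukocyte markers summed to at most 146 normalized reads in any library, with Ptprc at 0, and the 3 endothelial markers to at most 19.6.

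Some members share sequence with other places in the genome. Of the 50-base windows of the counted 3′UTR, 94.0% for Hspb1, 89.0% for Hsp90aa1, 85.9% for Dnajb6, 75.8% for Hspa8, 70.9% for Hspd1 and 60.1% for Hspe1 also occur elsewhere in the mouse chromosomes base for base. In all, 25 of 76 members had such a window and 13 had it in over 10% of positions. How reads that map to several places were assigned, beyond the SlamDunk default settings, is not given in the sources used here, so the values of these members are uncertain. Hspa8, the constitutive cytosolic HSP70, was listed at 1 to 55 reads per library, and Hsp90aa1, the inducible cytosolic HSP90, at 11.5 to 143 normalized reads. The part of shared sequence in these low counts was not tested.

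In DMSO the question was how chaperone RNA changes as pre-adipocytes become adipocytes. Together the 76 members made up 0.758% ± 0.0408 (SD, n = 3) of the reads, counted over 1 entry per gene, at day -2, 0.910% ± 0.0769 on day 1, 1.02% ± 0.00922 at day 3 and 0.951% ± 0.0423 at day 7. At an adjusted p under 0.01 (edgeR's quasi-likelihood test), 12 of the 65 tested members differed from day -2 at day 1 (6 higher and 6 lower), against 16.8% of all 13331 genes tested (6.99% higher and 9.86% lower). At day 3 the count was 20 (14 higher and 6 lower, against 36.0% of all genes, 16.6% higher and 19.4% lower), and at day 7 it was 24 (18 higher and 6 lower, against 38.3% of all genes, 18.9% higher and 19.4% lower). As a share, 18.5%, 30.8% and 36.9% of the tested members were called at days 1, 3 and 7, near the shares of all genes. The median log2 fold change was 0.15, 0.24 and 0.23 over the members at days 1, 3 and 7, and 0.00, 0.00 and -0.02 over all genes tested. Between day 1 and day 3, 13 members differed (8 higher and 5 lower, against 23.2% of all genes, 11.3% higher and 11.9% lower), and between day 3 and day 7, 9 did (7 higher and 2 lower, against 10.9%, 6.54% higher and 4.34% lower). These comparisons share libraries and are not independent. In bulk RNA, fewer cells of a type and less RNA per cell cannot be told apart.

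The mean level in DMSO peaked at day -2 for 10 of the 65 members (15.4%; 31.2% of all tested genes), at day 1 for 15 (23.1%; 20.9%), at day 3 for 17 (26.2%; 20.1%) and at day 7 for 23 (35.4%; 27.8%). None of the members placed in the mitochondrial, ER or CCT lists peaked at day -2. Some type C members, among them Dnajc18, which peaked at day -2, were placed in no list. Of the 8 mitochondrial members 3 peaked at day 3 and 5 at day 7, and of the 6 CCT subunits 5 peaked at day 3 and 1 at day 1.

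**Figure D1:**
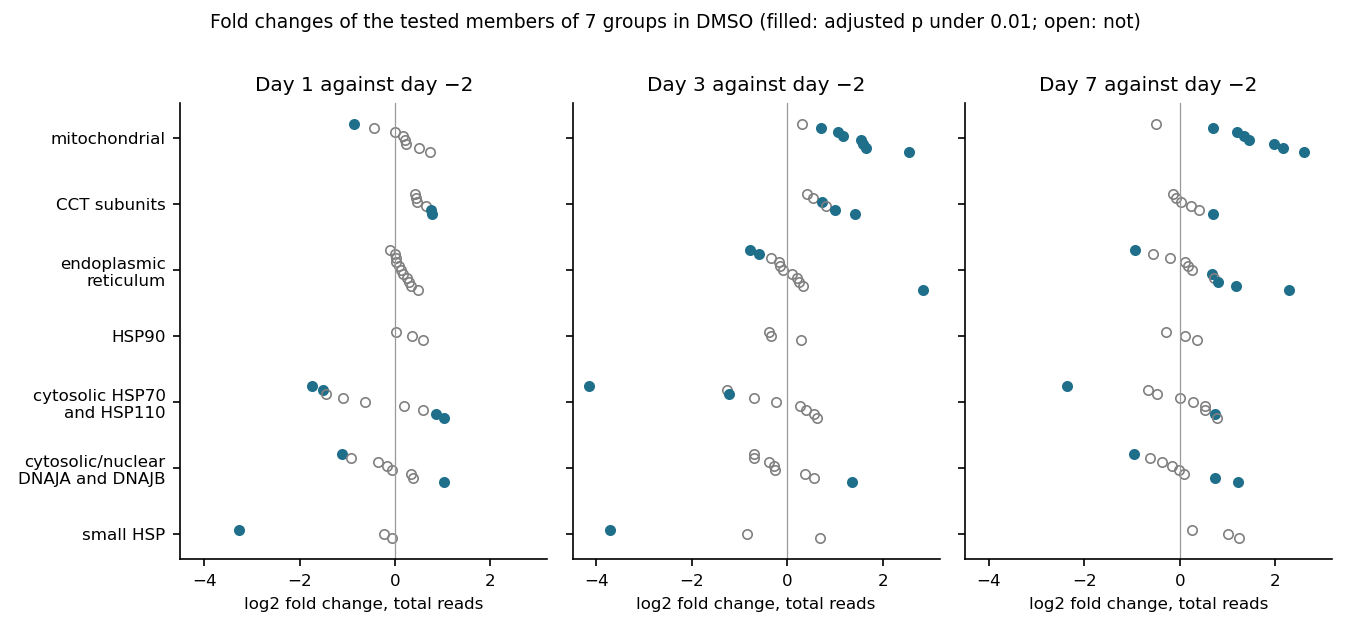
Log2 fold change of total reads against day -2 in DMSO (x axis) for the tested members (points) placed in 7 groups by compartment or family (y axis). Each of days 1, 3 and 7 has a panel, and filled points passed an edgeR adjusted p of 0.01. Hsp90b1 is drawn in both the HSP90 and the ER group, and tested members in no group are not drawn. Of the 8 mitochondrial points 7 are filled and right of 0 at days 3 and 7, while no HSP90 point is filled.

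Most mitochondrial chaperones rose. Of the 8 members of this group 7 were higher than at day -2 at day 3 and again at day 7, with median log2 fold changes of 1.35 and 1.40. At day 1 Hspa9 alone passed the test, as lower. Hspd1 was above its day -2 values at day 1 but short of the threshold (0.74 ± 0.20 (SE), edgeR adjusted p = 0.0134). Hspd1 (HSP60), the subunit of the mitochondrial chaperonin, gave 839, 783 and 708 normalized total reads at day -2 (replicates A, B and C, an order kept below), 1393, 1421 and 1079 on day 1, 4609, 4959 and 4012 at day 3 and 2980.1, 4583 and 2853 at day 7. The day 3 and day 7 values all lay above the earlier ones, and the log2 fold change was 2.54 ± 0.21 (SE) at day 3 (edgeR's quasi-likelihood test, adjusted p = 1.13e-07) and 2.16 ± 0.21 (SE) at day 7 (adjusted p = 4.65e-07). Its lid Hspe1 (HSP10), transcribed from the same promoter region in the other direction, gave 493, 498 and 386 at day -2, 555, 608 and 429 on day 1, 1514, 1484 and 1347 at day 3 and 731, 811 and 699 at day 7. Hspe1 was therefore highest at day 3 (1.66 ± 0.18 (SE), adjusted p = 2.08e-06) and fell again by day 7 (day 7 against day 3, -0.95 ± 0.18 (SE), edgeR adjusted p = 0.00142), a call that was lost without replicate A and without replicate C. The 3′UTRs counted are chr1:55077834-55078287 for Hspd1 (454 bases, minus strand) and chr1:55091121-55091317 for Hspe1 (197 bases, plus strand), both in mm10, and 70.9% and 60.1% of their 50-base windows occur elsewhere, as given above.

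Hspa9 (mortalin), the mitochondrial HSP70, moved down and then up. It gave 6092, 5546 and 6539.9 normalized reads at day -2, 3281, 3273 and 3491 on day 1, 8772, 9593 and 11061 at day 3 and 14691, 15791 and 16005 at day 7, with no overlap between any 2 days. Its log2 fold change against day -2 was -0.86 ± 0.15 (SE), adjusted p = 0.000775 on day 1, 0.69 ± 0.15 (SE), adjusted p = 0.00173 at day 3 and 1.35 ± 0.16 (SE), adjusted p = 3.36e-06 at day 7 (edgeR's quasi-likelihood test). Dnaja3 (Tid1), the J-domain partner of Hspa9, rose from 470.4, 642 and 520.4 at day -2 to 1521, 1833 and 1389.8 at day 3 and 2068, 2225 and 2104 at day 7 (day 7 against day -2, 1.97 ± 0.25 (SE), edgeR adjusted p = 8.79e-06). Dnajc15, a J-domain protein of the mitochondrial import motor, gave 310.1, 376 and 365 at day -2, 312, 422 and 315 on day 1, 851, 1208 and 1077 at day 3 and 1464, 3135 and 1759 at day 7. Replicate B was the highest in every condition for Dnajc15, and all day 7 values exceeded all day -2 values (2.60 ± 0.26 (SE), edgeR adjusted p = 9.36e-07). The remaining members of the group, named to complete it after their values were seen, were Dnajc11 (1.20 ± 0.27 (SE) at day 7, edgeR adjusted p = 0.002) and Dnajc30 (1.44 ± 0.26 (SE), adjusted p = 0.000299), which rose, and Dnajc19, which did not pass the test on any day (-0.50 ± 0.50 (SE) at day 7, adjusted p = 0.449). With each replicate letter left out in turn Hspd1, Hspe1, Dnaja3 and Dnajc15 kept their call at day 3, and Hspd1, Hspa9, Dnaja3, Dnajc15 and Dnajc30 at day 7. Of the 50-base windows of Dnajc30 and Hspa9, 40.6% and 15.5% occur elsewhere, so 4 of the 7 risen members share sequence in over 10% of positions. For Dnaja3 and Dnajc15 it was 0%.

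Other genes of mitochondrial protein folding and proteolysis, which are not members (10 tested, among them Grpel1, Trap1, Clpp and Lonp1), gave 8 higher and 0 lower at day 3 and at day 7, with medians of 1.16 and 1.46. The adipocyte markers rose over the same days, and their part in the mitochondrial values was not tested.

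**Figure D2:**
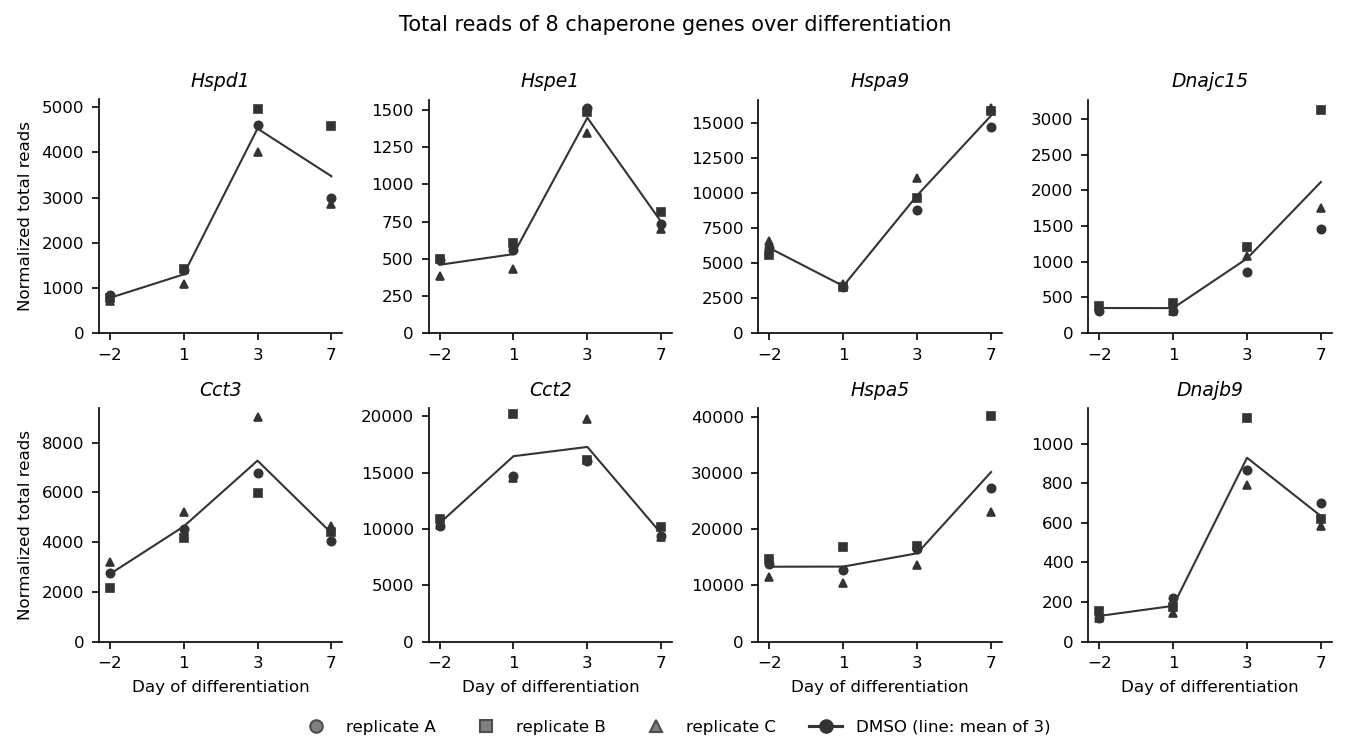
Normalized total reads (y axis, linear, from 0) at days -2, 1, 3 and 7 (x axis, evenly spaced) in DMSO for 4 mitochondrial, 2 CCT and 2 ER members; symbols are replicates A, B and C and lines join the means. Hspd1 lies between 4012 and 4959 at day 3 against 708 to 839 at day -2, Hspa9 dips at day 1, and Cct2 and Cct3 are lower again at day 7.

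Of the 6 CCT subunits tested 5 had their highest DMSO mean at day 3, and Cct4 had it at day 1. Of these 6 subunits 2 were higher at day 1 (Cct3 and Cct7), 3 at day 3 (Cct2, Cct3 and Cct7) and 1 at day 7 (Cct3), with medians of 0.55, 0.76 and 0.12 on the log2 scale, and none passed the test as lower than at day -2. Cct3 gave 2767, 2171 and 3191 normalized reads at day -2, 4523, 4152 and 5201 on day 1, 6794, 5981 and 9041 at day 3 and 4024, 4420.2 and 4646 at day 7. Every later value lay above the day -2 values (1.42 ± 0.20 (SE) at day 3, edgeR adjusted p = 2.57e-05). Cct2 gave 10284, 10894 and 10332 at day -2, 14711, 20180.1 and 14478 on day 1, 16006, 16099 and 19729 at day 3 and 9332, 10181 and 9248 at day 7, and its day 7 values lay below all earlier ones (day 7 against day 3, -0.85 ± 0.17 (SE), edgeR adjusted p = 0.00282). For Cct7 the log2 fold change was 0.75 ± 0.17 (SE), adjusted p = 0.00497 at day 1 and 1.00 ± 0.17 (SE), adjusted p = 0.000214 at day 3 in the same edgeR test. The other 3 subunits did not pass 0.01 on any day. At day 3 their log2 fold changes were 0.41 ± 0.22 (SE) for Cct4, 0.80 ± 0.23 (SE) for Cct5 and 0.53 ± 0.16 (SE) for Cct8 (edgeR adjusted p = 0.148, adjusted p = 0.0106 and adjusted p = 0.0122). Only Cct3 at day 3 kept its call with each replicate letter left out. The other chaperonin and prefoldin subunits (10 tested, not members; prefoldin hands nascent chains to CCT) had 1, 3 and 0 higher at days 1, 3 and 7, and 1 lower at day 7.

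In the ER the changes came late and were mixed. Of the 11 members placed in the ER list none passed at day 1. At day 3, 1 was higher and 2 were lower, and at day 7, 4 were higher and 1 lower. The medians were 0.12, -0.09 and 0.26. Dnajb9 (ERdj4), a co-chaperone of BiP that is a known target of the unfolded protein response, gave 117, 154 and 118 normalized reads at day -2, 221, 176 and 145 on day 1, 867, 1130.2 and 792 at day 3 and 703, 617 and 584 at day 7. All values at days 3 and 7 lay above all values at days -2 and 1 (2.84 ± 0.22 (SE) at day 3, edgeR adjusted p = 6.51e-08, and 2.29 ± 0.22 (SE) at day 7, adjusted p = 4.65e-07). Its fold change was the largest among the members higher at day 3. Hspa5 (BiP) gave 13734, 14765 and 11421 at day -2, 12795, 16841 and 10346 on day 1, 16476, 17051 and 13548 at day 3 and 27331, 40016 and 23043 at day 7. The day 7 values did not overlap those of any earlier day (1.18 ± 0.23 (SE) against day -2, edgeR adjusted p = 0.000571). Dnajc3 (p58IPK), another BiP co-chaperone, gave 677, 876 and 666 at day -2, 659.8, 697 and 595 at day 3 and 1268, 1169 and 1431 at day 7 (0.80 ± 0.17 (SE) against day -2, adjusted p = 0.000964). Hsp90b1 (GRP94), whose promoter holds 2 ER stress elements, did not pass the test (4578, 4880.2 and 4091 at day -2 and 6361, 2157 and 6063 at day 7, 0.11 ± 0.29 (SE), edgeR adjusted p = 0.803), and replicate B lay far below A and C at day 7. Dnajb11 (ERdj3) was at 0.26 ± 0.24 (SE) on the log2 scale at day 7 (adjusted p = 0.409).

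Of the ER list Dnajc10 (ERdj5, a reductase) fell, with -0.78 ± 0.18 (SE) at day 3 and -0.94 ± 0.18 (SE) at day 7 (edgeR adjusted p = 0.00272 and adjusted p = 0.000594). Hspa13, an HSP70-like protein of microsomes, fell at day 3 (-0.59 ± 0.16 (SE), edgeR adjusted p = 0.0094). Dnajb14 rose at day 7 (0.67 ± 0.16 (SE), edgeR adjusted p = 0.0026), and it and Hspa13 are named after their values were seen. With each replicate letter left out Dnajb9 kept its call at days 3 and 7, while Hspa5, Dnajc3 and Dnajc10 lost theirs in at least 1 case. ER folding genes outside the members (15 tested, among them Hyou1, Pdia6, Sdf2l1 and Xbp1, the transcription factor of the unfolded protein response) had 1, 3 and 7 higher and 0 lower at days 1, 3 and 7, with a median of 0.57 at day 7.

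The cytosolic HSP70 and HSP110 members went in different directions. Of 9 tested, 2 were higher and 2 lower at day 1, 0 and 2 at day 3, and 1 and 1 at day 7. Hspa1b, the stress-inducible HSP70, gave 694, 716 and 751 normalized reads at day -2, 231, 314 and 214 on day 1, 321, 326 and 278 at day 3 and 749, 593 and 812 at day 7. The values at days 1 and 3 lay below those at the start and the end (-1.51 ± 0.19 (SE) at day 1, edgeR adjusted p = 4e-05; day 7 against day 3, 1.22 ± 0.19 (SE), adjusted p = 0.000423). Its near twin Hspa1a had at most 7 reads in a library. Hsph1 (HSP105), the nucleotide exchange factor, gave 748, 757 and 782 at day -2, 1328, 1544 and 1250.4 on day 1, 929, 1131 and 948 at day 3 and 1048, 1544 and 1208 at day 7 (0.85 ± 0.17 (SE) at day 1, edgeR adjusted p = 0.00223). Hspa14, an HSP70 bound to ribosomes, was high at day 1, with 401, 499 and 408 at day -2, 749, 1185 and 749 on day 1 and 515, 485 and 560.1 at day 3 (1.04 ± 0.21 (SE) at day 1, edgeR adjusted p = 0.00218). Hspa12b, an atypical HSP70 known from endothelium, fell from 152, 107 and 151 at day -2 to 48.7, 39.2 and 35.5 on day 1 and 6.57, 5.80 and 10.4 at day 3 (-4.15 ± 0.50 (SE), edgeR adjusted p = 6.08e-06). Its day 7 values of 11.3, 21.9 and 46.8 again lay below all day -2 values (-2.36 ± 0.43 (SE), adjusted p = 0.000346). Hspa4 and Hspa2 did not pass on any day (0.56 ± 0.24 (SE) at day 3, edgeR adjusted p = 0.0708, and 0.54 ± 0.33 (SE) at day 7, adjusted p = 0.201).

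None of the 3 HSP90 members passed the test at any day, and Hsp90ab1, the constitutive cytosolic form, gave 7534, 6946 and 8673 at day -2 and 6189, 5926 and 6752 at day 7 (-0.30 ± 0.16 (SE), edgeR adjusted p = 0.164). Among the small HSPs 3 of 7 could be tested. Hspb2, known from muscle, had 29, 16 and 47 reads (counts, not normalized) at day -2, 6, 1 and 2 on day 1, 0, 1 and 4 at day 3 and 27, 28 and 31 at day 7. It was lower at days 1 and 3 than at day -2 (edgeR adjusted p = 0.00682 and adjusted p = 0.00229), and at counts this low no fold is given. In DMSO Hspb2 reached the minimum count of 10 at days -2 and 7 alone. The filter thus favoured a fall from day -2 for Hspb2, and these calls carry little weight. Hspb6 (HSP20), which was lowest in replicate B in every condition, gave 609, 278 and 807 at day -2, 391, 199 and 349 at day 3 and 1497, 944 and 1546 at day 7. Its rise from day 3 to day 7 passed (2.08 ± 0.39 (SE), edgeR adjusted p = 0.00157). Hspb8, a partner of Bag3 in selective autophagy, was at 1.00 ± 0.30 (SE) on the log2 scale at day 7, short of the threshold (adjusted p = 0.012).

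The J-domain proteins of the cytosol and nucleus differed in their courses, with 1 higher and 1 lower of 8 on day 1, 1 and 0 at day 3 and 2 and 1 at day 7. Dnajb1 (HSP40), the main J-domain partner in the heat shock response, gave 3766, 2348 and 3736 normalized reads at day -2 and 1459, 1517 and 1612 on day 1, with no overlap (-1.10 ± 0.22 (SE), edgeR adjusted p = 0.00173). Its close relative Dnajb4 gave 902, 983 and 817 at day -2, 1905, 1436 and 2204 on day 1, 798, 915 and 560.1 at day 3 and 477, 372 and 539 at day 7. Dnajb4 thus rose at day 1 (1.04 ± 0.22 (SE), edgeR adjusted p = 0.00246) and by day 7 lay below its starting level (-0.96 ± 0.22 (SE), adjusted p = 0.00202). Dnaja4 rose at day 3 (265, 188 and 226 at day -2 and 549, 611 and 579 at day 3, 1.36 ± 0.18 (SE), edgeR adjusted p = 2.03e-05). Dnajb2, which hands ubiquitylated clients to the proteasome, rose late (285, 345 and 264 at day 3 and 654, 1221 and 658 at day 7), and its day 7 values did not overlap with those of any earlier day (1.23 ± 0.23 (SE) against day -2, edgeR adjusted p = 0.000437). Dnaja1, a general partner of cytosolic HSP70, did not pass on any day (-0.39 ± 0.26 (SE) at day 3, edgeR adjusted p = 0.247).

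Among type C members outside these groups, Dnajc13, an endosomal protein, fell from 1214, 1464 and 1229 at day -2 to 717, 705 and 698 on day 1, 743, 664 and 486 at day 3 and 624, 661 and 533 at day 7 (edgeR adjusted p = 0.00207, adjusted p = 0.000223 and adjusted p = 0.000122). Dnajc9, a histone chaperone, was high at day 1 (407, 470.4 and 414 at day -2, 703, 956 and 671 on day 1, 408, 419.6 and 430.5 at day 3; 0.85 ± 0.18 (SE) at day 1, adjusted p = 0.00235). Dnajc27 and Dnajc18 were lower at day 7 (-1.51 ± 0.37 (SE) and -1.37 ± 0.30 (SE), edgeR adjusted p = 0.00325 and adjusted p = 0.00164). Dnajc28, Dnajc4 and Dnajc5, named to complete the set after their values were seen, were higher at day 7 (1.67 ± 0.32 (SE), 1.14 ± 0.25 (SE) and 0.83 ± 0.17 (SE), edgeR adjusted p = 0.000514, adjusted p = 0.00156 and adjusted p = 0.000765). Dnajc28 and Dnajc5 were also higher at day 3. The co-chaperones and factors of cytosolic HSP70 and HSP90 that are not members (25 tested, among them the Bag genes, Stip1 and Hsf2) had 3 higher and 3 lower at day 1, 6 and 2 at day 3, and 7 and 2 at day 7.

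These counts depended on the replicates: they rose or stayed when B was left out and fell when A or C was. No share over all genes is given beside the counts of this paragraph. Whether the dependence is particular to the members was not tested. Without A, B or C in turn, the number of members called was 0, 12 and 1 on day 1, 9, 28 and 11 at day 3, 8, 29 and 14 at day 7, 5, 20 and 7 for day 3 against day 1, and 0, 18 and 0 for day 7 against day 3. Of the calls made with all 3 replicates, 0 of 12 on day 1, 9 of 20 at day 3, 8 of 24 at day 7, 4 of 13 for day 3 against day 1 and 0 of 9 for day 7 against day 3 stood with each letter left out. Those that stood were Cct3, Dnaja3, Dnaja4, Dnajb9, Dnajc13, Dnajc15, Hspa12b, Hspd1 and Hspe1 at day 3, Dnaja3, Dnajb2, Dnajb9, Dnajc13, Dnajc15, Dnajc30, Hspa9 and Hspd1 at day 7, and Dnajb9, Hspa9, Hspd1 and Hspe1 for day 3 against day 1, and every other call named above was lost in at least 1 of the 3 cases.

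ML-792 was compared with DMSO on each day, to ask how chaperone RNA responds when SUMOylation is blocked. At an adjusted p under 0.1 (edgeR's quasi-likelihood test), 0 of 65 members differed at day -2 (0% of all genes; 1 member had an unadjusted p under 0.05 and DESeq2 called 0), 3 at day 1 (2 higher and 1 lower, against 8.03% of all genes, 3.72% higher and 4.31% lower), 3 at day 3 (3 higher and 0 lower, against 15.4%, 8.42% higher and 6.97% lower) and 8 at day 7 (2 higher and 6 lower, against 11.6%, 6.03% higher and 5.58% lower). The share of members called was 4.62% at days 1 and 3, below that of all genes, and 12.3% at day 7, near it. These counts come from a model without the replicate letters. With a replicate block more members were called at days 1, 3 and 7, as given with the processing below. No share of all genes under the block is given. The standing of the members beside all genes therefore holds for the model without the letters alone. The median log2 fold change of the tested members was -0.07, -0.08, -0.01 and -0.10 at days -2, 1, 3 and 7, beside 0.00, -0.02, 0.02 and 0.00 over all genes. The summed share of reads at day 7 was 0.951% ± 0.0423 in DMSO (0.924 to 1.00%) and 0.786% ± 0.00819 in ML-792 (0.777 to 0.793%), without overlap, while at day 3 it was 1.02% and 0.972%. Most of this difference lay in 2 abundant genes, Hspa5 and Hspa9, singled out after their values were seen, which together held 0.332% ± 0.0557 in DMSO and 0.210% ± 0.0131 in ML-792. The other 74 members held 0.619% ± 0.0153 (0.605 to 0.635%) and 0.575% ± 0.0200 (0.561 to 0.598%). In this test no CCT or HSP90 member passed on any day, and no mitochondrial or ER member before day 7.

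Hsph1 and Hspa12a rose under ML-792 at day 1. Hsph1 gave 1328, 1544 and 1250.4 normalized reads in DMSO and 2941, 2785 and 3205 in ML-792 on day 1, with no overlap (1.12 ± 0.14 (SE), edgeR adjusted p = 1.38e-05). At day 3 it gave 929, 1131 and 948 in DMSO and 1719.6, 1841 and 1849 in ML-792 (0.85 ± 0.14 (SE), adjusted p = 0.000226). At day -2 the values were 748, 757 and 782 in DMSO and 772, 740.3 and 854 in ML-792, and at day 7 they were 1048, 1544 and 1208 in DMSO and 1019, 1052 and 903 in ML-792, neither past the threshold (0.05 ± 0.14 (SE), adjusted p = 1, and -0.35 ± 0.14 (SE), edgeR adjusted p = 0.166). Hsph1 thus stood out at the middle days, and both calls were kept without each replicate letter. Hspa12a, an atypical HSP70, gave 84.6, 112 and 98.1 in DMSO and 369, 515 and 364 in ML-792 at day 1 (2.08 ± 0.23 (SE), edgeR adjusted p = 1.61e-06). It was higher at day 3 (85.4, 111 and 105 against 179, 196 and 183, 0.89 ± 0.23 (SE), adjusted p = 0.0123) and at day 7 (0.79 ± 0.23 (SE), adjusted p = 0.0333), and these later calls were lost without A or without C. The counted 3′UTRs lie at chr5:149616843-149617506 for Hsph1 (minus strand) and chr19:58795750-58799360 for Hspa12a (minus strand), in mm10.

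Dnajb4 was lower under ML-792 on day 1, when it peaked in DMSO. It gave 1905, 1436 and 2204 in DMSO and 781, 914 and 684 in ML-792, with no overlap (-1.22 ± 0.21 (SE), edgeR adjusted p = 0.00051). The ML-792 values at day 1 overlapped the day -2 values (902, 983 and 817 in DMSO and 819, 790.5 and 921 in ML-792). The call was kept with each letter left out. Hspb6 was higher at day 3 (391, 199 and 349 in DMSO and 925, 434 and 919 in ML-792, 1.28 ± 0.45 (SE), edgeR adjusted p = 0.0821), with replicate B lowest in both groups, and this call was lost without A and without C.

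**Figure D3:**
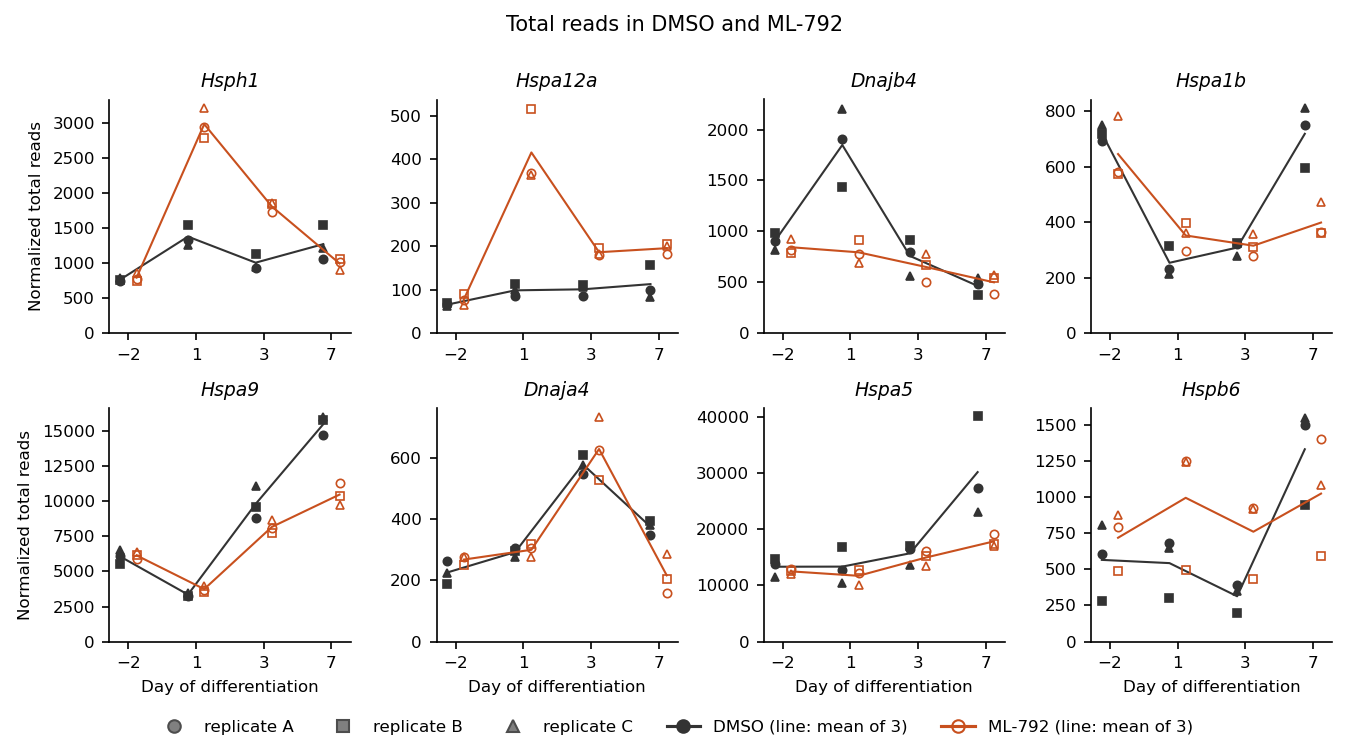
Normalized total reads (y axis, linear, from 0) by day (x axis, evenly spaced) for members called under ML-792, in DMSO (filled) and ML-792 (open); symbols are replicates A, B and C and lines join the means. Hsph1 and Hspa12a lie higher in ML-792 at days 1 and 3, Dnajb4 lower at day 1, and Hspa5, Hspa9, Hspa1b and Dnaja4 lower at day 7.

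At day 7 the lower members included HSP70s of the ER, the mitochondria and the cytosol. Hspa5 gave 27331, 40016 and 23043 in DMSO and 19191, 17336 and 16924 in ML-792 (-0.76 ± 0.19 (SE), edgeR adjusted p = 0.0132). Hspa9 gave 14691, 15791 and 16005 in DMSO and 11292, 10370.3 and 9769.5 in ML-792 (-0.56 ± 0.13 (SE), adjusted p = 0.00507). Hspa1b gave 749, 593 and 812 in DMSO and 363, 360.3 and 471 in ML-792 (-0.85 ± 0.18 (SE), adjusted p = 0.00402). For each of these genes the 3 ML-792 values at day 7 lay below the 3 DMSO values. Hspa4l, an HSP110 relative, gave 384, 335 and 321 in DMSO and 84.6, 225 and 178 in ML-792 (-1.09 ± 0.32 (SE), edgeR adjusted p = 0.0376). Dnaja4 gave 349.8, 395 and 381 in DMSO and 159.7, 203 and 287 in ML-792 (-0.80 ± 0.19 (SE), adjusted p = 0.00793), and in neither gene did the groups overlap. Hspa8 passed at the edge of detection, with 15.8, 13.6 and 16.0 in DMSO and 2.38, 1.29 and 4.10 in ML-792 (edgeR adjusted p = 0.0576), from 1 to 3 reads per ML-792 library, and no fold is given. The higher members were Hspa12a and Dnajc12 (23.7, 32.3 and 39.98 in DMSO and 63.1, 55.3 and 120.2 in ML-792, 1.31 ± 0.33 (SE), edgeR adjusted p = 0.0156).

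Without A, B or C in turn the members called were 3, 7 and 3 on day 1, 1, 6 and 1 at day 3, and 0, 14 and 3 at day 7, and none of the 8 day 7 calls stood in all 3 cases. All 8 were lost without A, all but Hspa5, Hspa1b and Dnaja4 without C, and Hspa8 without B. No share over all genes is given beside these counts. Within the same libraries the adipocyte markers summed to 645923 to 733623 in DMSO and 850811 to 910821 in ML-792 at day 7, and the fibroblast and pre-adipocyte markers to 45995 to 74855 and 78724 to 102970. Both marker sums were higher under ML-792 at day 7 without overlap, though not every marker was. Of the 7 fibroblast and pre-adipocyte markers Pdgfra, Pdgfrb, Col1a1 and Col1a2 were higher without overlap, and Thy1 and Vim overlapped. The pre-adipocyte marker Dlk1 was lower without overlap, at 2883 to 3496 in DMSO and 1019 to 1736 in ML-792. Of the 7 adipocyte markers Adipoq and Fabp4 were higher without overlap and the other 5 overlapped. These are values without a test, and their part in the chaperone values was not tested. The macrophage and endothelial sums were at most 51.9 and 6.83 normalized reads at day 7 in ML-792. Of the pathway genes outside the members, the co-chaperones had 2 higher and 2 lower of 25 at day 7, the ER folding genes 0 and 1 of 15 (Sdf2l1), the mitochondrial genes 0 and 1 of 10 (Lonp1), and the chaperonin and prefoldin subunits 0 and 0 of 10.

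A joint test of whether the ML-792 effect differs between days passed at 0.1 for 6 of 65 members, against 11.9% of all genes. They were Hsph1 (edgeR interaction, adjusted p = 5.54e-05), Hspa12a (adjusted p = 0.00287), Hspa1b (adjusted p = 0.0101), Dnajb4 (adjusted p = 0.0165), Hspa9 (adjusted p = 0.0359) and Dnaja4 (adjusted p = 0.0374). For Hsph1 the log2 fold change was 0.05, 1.12, 0.85 and -0.35 at days -2, 1, 3 and 7, and for Hspa1b it was -0.16, 0.47, 0.03 and -0.85. Hspa5 is not among them. Without A, B or C the count was 1, 9 and 1, without a share over all genes beside it, and Hsph1 was the call kept throughout.

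Labelled reads carry a T to C conversion, which marks RNA made in the last 45 minutes but can also arise in other ways. No library without 4-thiouridine is among those used here to measure that part. They made up 3.17% ± 0.485 (SD, n = 3) of the reads at day -2 in DMSO, 1.27% ± 0.0798 on day 1, 1.03% ± 0.115 at day 3 and 1.03% ± 0.0869 at day 7, and in ML-792 2.83% ± 0.206, 1.06% ± 0.0482, 0.958% ± 0.0369 and 0.837% ± 0.0310. For a single gene, the labelled share of its own reads reflects both its synthesis and the turnover of its RNA as well as its number of T bases, so the order of genes by their share is a description and not an order of their synthesis. Over the 49 members with at least 100 reads in every library, the median share at day -2 in DMSO was 2.03%, beside 2.29% over 6811 genes held to the same minimum. At days 1, 3 and 7 the medians were 0.824%, 0.745% and 0.863% over the members and 1.02%, 0.795% and 0.873% over the genes.

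The labelled share differed widely between members. The 5 highest at day -2 were Dnajb4 with 12.3% ± 3.52 (SD, n = 3), Dnajb1 with 8.85% ± 1.46, Hspa9 with 7.71% ± 0.959, Hspa1b with 6.23% ± 3.82 and Dnaja1 with 5.00% ± 0.979. The 5 lowest were Hspb11 with 0.190% ± 0.189, Cct5 with 0.652% ± 0.347, Dnajb11 with 0.696% ± 0.490, Dnajc4 with 0.703% ± 0.616 and Dnajc15 with 0.798% ± 0.833. The lowest places rest on few labelled reads at day -2, with 0, 1 and 1 for Hspb11, 4, 0 and 4 for Dnajc4 and 0, 7 and 3 for Dnajc15 in replicates A, B and C. Their order is not settled. By day 7 the share of Dnajb4 was 3.71%, that of Dnajb1 2.29% and that of Hspa9 4.85%. For Hspa5 it went from 3.73% at day -2 to 1.10% at day 7, and was 0.567% in ML-792 at day 7.

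**Figure D4:**
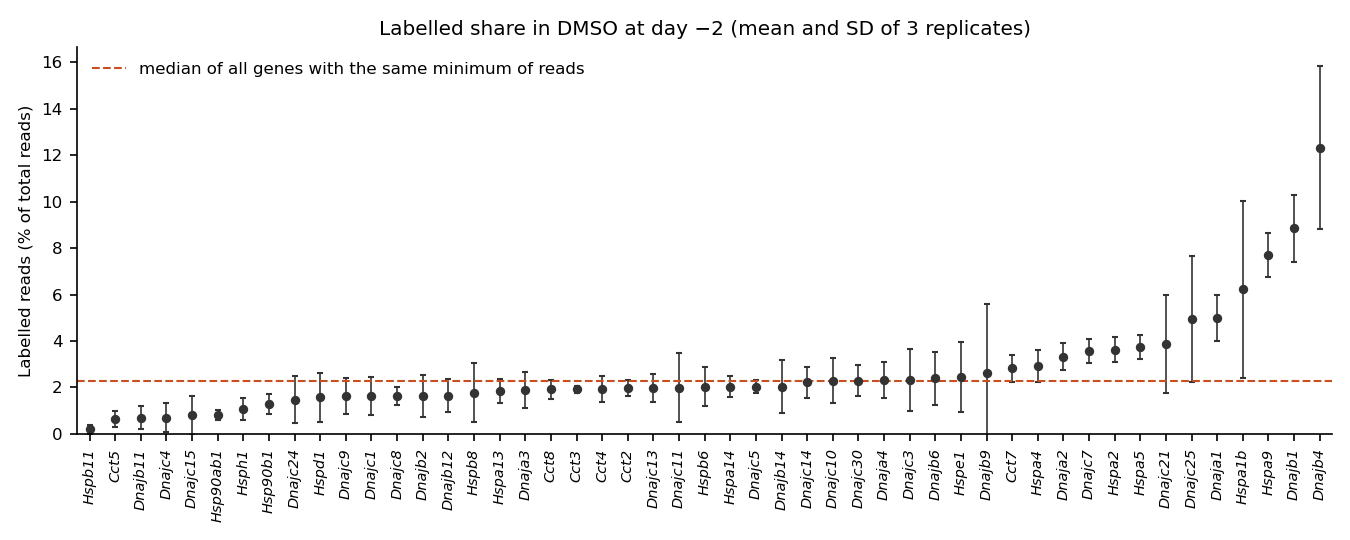
Labelled reads as a percentage of total reads (y axis, linear, from 0) in DMSO at day -2 for each of the 49 members with at least 100 reads in every library (x axis, ordered by value); points are means, bars the SD of 3 replicates, cut at 0, and the dashed line the median of 2.29% over all genes with that minimum. Dnajb4 at 12.3% and Dnajb1 at 8.85% stand at the top and Hspb11 at 0.190% at the bottom.

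Scaled to the total reads, labelled reads of 7 of 40 members were lower at day 1 than at day -2 and 0 higher (edgeR's quasi-likelihood test, adjusted p under 0.01; 19.5% of all 6434 genes, 0.560% higher and 18.9% lower). At day 3 the count was 11, again 11 lower and 0 higher (34.3% of all genes, 1.99% higher and 32.3% lower), and at day 7 it was 5, with 5 lower and 0 higher (30.0%, 1.99% higher and 28.1% lower). The median over the members was -0.97, -1.13 and -0.77 at days 1, 3 and 7, and over all genes -1.20, -1.64 and -1.47. Scaling by the labelled reads themselves moved the median of all genes up, to 0.06, -0.12 and -0.04, and turned the split. On that scale 1 member was higher and 1 lower at day 1, 5 and 0 at day 3, and 2 and 0 at day 7, with member medians of 0.28, 0.41 and 0.66. The scalings differ by -1.26, -1.52 and -1.42 in the median of all genes at days 1, 3 and 7, and by -0.18, -0.25, -0.07 and -0.34 in the ML-792 comparisons at days -2, 1, 3 and 7, so a labelled change is relative to the scale named with it. Between day 1 and day 3, 2 members were higher and 0 lower (3.48% of all genes, 1.48% higher and 2.00% lower), and between day 3 and day 7 none passed (0.326%, 0.264% higher and 0.0622% lower; 6 members had an unadjusted p under 0.05 and DESeq2 called 0).

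The labelled reads of Dnajb1 were far lower once differentiation had begun. It gave 366, 168 and 361 normalized labelled reads at day -2, 20.2, 36.4 and 24.7 on day 1, 62.4, 44.0 and 66.0 at day 3 and 51.9, 32.3 and 65.1 at day 7, with no later value reaching those of day -2 (-3.45 ± 0.42 (SE) at day 1, edgeR adjusted p = 4.96e-09). This was the member lower at day 1 on both scales (-2.14 when scaled by labelled reads, edgeR adjusted p = 2.49e-05). Dnajb4 gave 139.9, 84.1 and 106 at day -2, 64.4, 26.4 and 98.1 on day 1, 26.3, 35.9 and 28.9 at day 3 and 19.2, 11.5 and 21.7 at day 7 (-2.65 ± 0.47 (SE) at day 7, edgeR adjusted p = 1.04e-05). Hspa5 gave 541, 465 and 469.8 at day -2, 107, 138 and 105 on day 1, 156, 195 and 191 at day 3 and 304, 324 and 319 at day 7. On the total scale Hspa5 was lower at day 1 (-2.08 ± 0.32 (SE), edgeR adjusted p = 1.41e-06) and at day 3 (-1.44 ± 0.31 (SE), adjusted p = 0.00022). Scaled by labelled reads the day 3 value turned to 0.09 (adjusted p = 0.878), and Hspa5 did not pass as lower at day 1. Nor did any member pass as lower at day 3 or day 7 on that scale, Dnajb1 and Dnajb4 included. Hspa1b, Dnaja1, Dnaja2 (named after its value was seen) and Dnajc13 were also lower at day 1 on the total scale, with -2.47, -2.71, -1.41 and -2.69 on the log2 scale, and none of them passed when scaled by labelled reads. In DMSO Dnajc13 reached the minimum count of 10 labelled reads at day -2 alone (40, 26 and 23, against 7, 3 and 3 at day 1). The filter thus favoured a fall for Dnajc13, and its call carries little weight. Dnaja1 was also low, with 34, 23 and 18 labelled reads at day -2 and 0, 4 and 7 at day 1.

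Hspa9 rose again after day 1. It gave 537, 403 and 461 normalized labelled reads at day -2, 152, 145 and 181 on day 1, 467, 584 and 476 at day 3 and 552, 1086 and 625 at day 7. On the total scale day 1 lay below all other days (against day -2, -1.55 ± 0.31 (SE), edgeR adjusted p = 0.000126), and day 3 exceeded day 1 (1.68 ± 0.31 (SE), adjusted p = 0.00013). On the labelled scale Hspa9 was higher than at day -2 at day 3 (1.68, edgeR adjusted p = 5.84e-06) and day 7 (2.15, adjusted p = 1.8e-08). The other gene higher at day 3 than at day 1 was Dnajb9, from 0.920, 0.911 and 2.47 to 27.4, 19.7 and 13.9 labelled reads (edgeR adjusted p = 0.00708), counts at day 1 being at the detection floor of 3 reads. In DMSO Dnajb9 reached the minimum count of 10 labelled reads in all 3 replicates at days 3 and 7 alone. Its counts were 3, 10 and 0 at day -2 and 25, 17 and 12 at day 3. The filter thus favoured a rise for Dnajb9, and its labelled calls on either scale carry little weight. On the labelled scale the members higher than at day -2 at day 3 were Hspd1, Dnajb9, Hspa9, Cct5 and Cct7, and at day 7 Dnajb9 and Hspa9. In total reads Hspa9 thus dipped at day 1. Its labelled reads did so on the total scale, but scaled by labelled reads Hspa9 did not pass as lower at day 1. Without A, B or C the labelled calls on the total scale numbered 2, 6 and 3 on day 1, 1, 7 and 3 at day 3, 3, 8 and 3 at day 7 and 0, 2 and 1 for day 3 against day 1. On that total scale Dnajb1 kept its call at days 1, 3 and 7, Hspa5 on day 1, and Dnaja2 and Dnajb4 at day 7. The other labelled calls of the time course were lost in at least 1 case. For these counts without a letter no share over all genes is given.

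Under ML-792 few labelled calls were made. None of 40 members passed at day -2 (0% of all genes in either direction; 0 members had an unadjusted p under 0.05, and DESeq2 called 0) or at day 1 (1.06% of all genes, 0.140% higher and 0.917% lower; 5 members had an unadjusted p under 0.05, and DESeq2 called 2). At day 3, 1 member was lower and 0 higher (1.12%, 0.420% higher and 0.699% lower), and at day 7, 2 were lower and 0 higher (0.964%, 0.0777% higher and 0.886% lower). Hspa5 was the member lower on both days. It gave 156, 195 and 191 labelled reads in DMSO and 90.2, 74.7 and 73.1 in ML-792 at day 3 (-1.19 ± 0.29 (SE), edgeR adjusted p = 0.0362). At day 7 it gave 304, 324 and 319 in DMSO and 106, 93.9 and 102 in ML-792 (-1.64 ± 0.29 (SE), adjusted p = 0.000681). The groups did not overlap on either day, and scaling by labelled reads left both calls in place (-1.12 and -1.31, edgeR adjusted p = 0.0316 and 0.0112). The day 7 call also stood without each replicate letter, while the day 3 call was lost without A and without C. At day 1 the values of Hspa5 were 107, 138 and 105 in DMSO and 64.2, 95.4 and 77.4 in ML-792 (-0.56 ± 0.29 (SE), adjusted p = 0.466), short of the threshold. In total reads Hspa5 at day 3 was -0.07 ± 0.19 (SE) (edgeR adjusted p = 0.913), so the labelled reads were lower at day 3 and both kinds of reads at day 7.

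Dnaja4 had 0 labelled reads in all 3 ML-792 libraries at day 7, which allows up to 3 reads in each, and 12.4, 4.17 and 16.0 normalized labelled reads in DMSO (edgeR adjusted p = 0.0438), a call lost without A and without C. Hsph1, whose total reads rose at day 1, gave 6.44, 10.9 and 3.30 labelled reads in DMSO and 17.1, 18.6 and 27.0 in ML-792 at day 1. These did not overlap, but the adjusted p missed the threshold (1.60 ± 0.72 (SE), edgeR adjusted p = 0.381). For Dnajb4 the day 1 values were 64.4, 26.4 and 98.1 in DMSO and 15.0, 38.4 and 19.6 in ML-792 (-1.38 ± 0.43 (SE), adjusted p = 0.137). Over all 4 days the test of a differing ML-792 effect called 0 of 40 members (0.280% of all genes; 2 members had an unadjusted p under 0.05, and DESeq2 called 2).

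**Figure D5:**
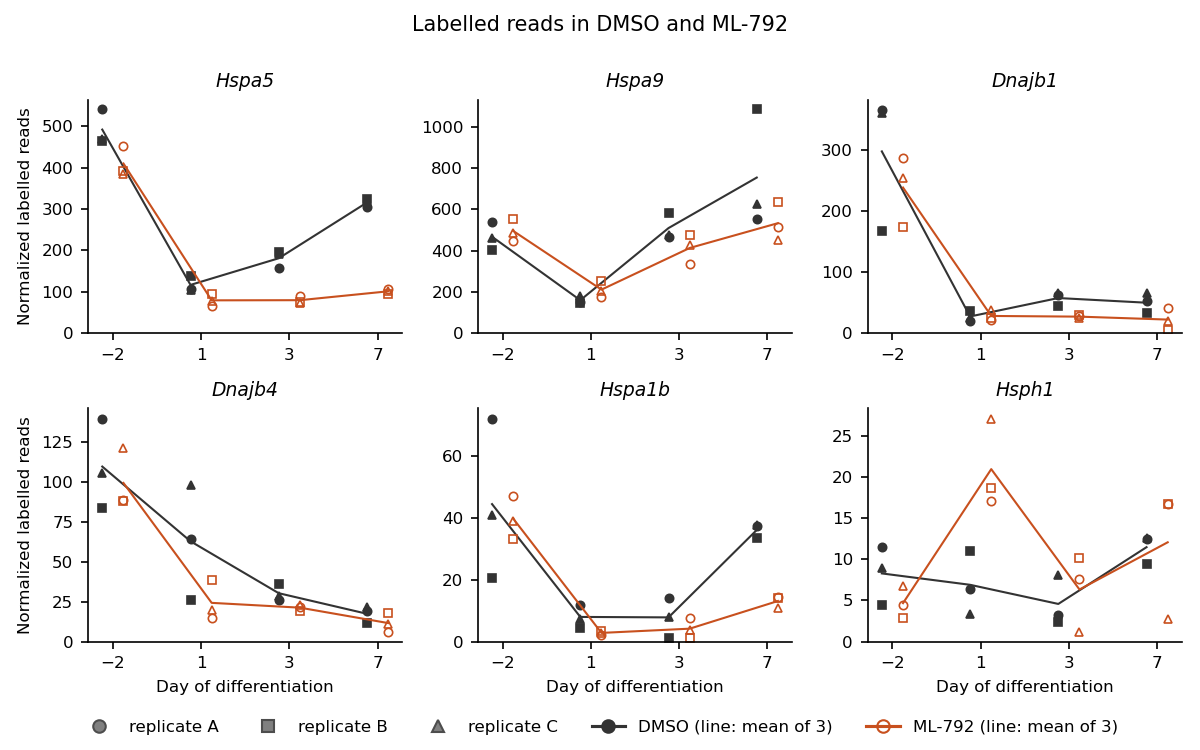
Normalized labelled reads (y axis, linear, from 0) by day (x axis, evenly spaced) in DMSO (filled) and ML-792 (open); symbols are replicates A, B and C and lines join the means. Hspa5 lies between 304 and 324 in DMSO and between 94 and 106 in ML-792 at day 7, and Dnajb1 lies lower at day 1 than at day -2 in both.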

How the data were processed

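The authors sequenced 3′ end libraries on an Illumina HiSeq instrument (single 50-base reads, bcl2fastq 2.17.1.14 per the labels), aligned them to mm10 with SlamDunk at default settings, and deposited whole-number counts of total and of labelled reads (those carrying 1 or more T to C conversions) per RefSeq 3′UTR entry. Of the columns of each table, 6 of a further day match no sample here and were not used. Groups come from the sample titles. Total counts were normalized by TMM (edgeR 4.0.16, R 4.3.3), labelled counts by the total library sizes and TMM factors, so normalized reads are counts divided by the relative effective library size. Entries were kept by filterByExpr (minimum count 10, minimum total 15), leaving 26563 total and 10589 labelled entries, and tested with edgeR's quasi-likelihood test with Benjamini-Hochberg adjustment over all entries: the time course in the 12 DMSO libraries (adjusted p under 0.01), ML-792 and the day by treatment interaction in all 24 (under 0.1). Counts over all genes use the entry with the highest mean total count of each gene. Alternatives were DESeq2 1.42.0, other filters and scalings, a replicate block and each replicate letter left out. The tests were tried on simulated counts first. Members named are a core list, the 4 highest and 4 lowest called members of each comparison and the 5 highest and lowest labelled shares, with exceptions stated. The members and gene lists were chosen with earlier results of these data known. P-values rest on the spread between replicates within conditions, pooled over the libraries of a fit and moderated across entries. This spread includes differences between the replicate letters.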

Additional observations from a re-analysis of the deposited data

Results flagged for a closer look

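The effect of ML-792 on total reads differed between days for 6 members in edgeR's interaction test over all genes. Hsph1 had an adjusted p = 5.54e-05 in that edgeR test, with log2 fold changes of 1.12 at day 1 and -0.35 at day 7. Hspa12a had an adjusted p = 0.00287, with 2.08 at day 1 and 0.79 at day 7. Hspa1b had an adjusted p = 0.0101, with 0.47 at day 1 and -0.85 at day 7, and Dnajb4 an adjusted p = 0.0165, with -1.22 at day 1 and 0.11 at day 7. Hspa9 (adjusted p = 0.0359) and Dnaja4 (adjusted p = 0.0374) were at -0.56 and -0.80 at day 7, with 0.16 and 0.04 at day 1. With each replicate letter left out in turn Hsph1 alone of these 6 kept its call.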

How the results depend on the processing

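The numbers of members called depended on the replicates and on the replicate block. Beside the numbers under these settings no share over all genes is given. Whether the dependence is particular to the members was not tested. With 1 replicate letter left out the time course gave 0 to 12 calls in total reads at day 1, 9 to 28 at day 3, 8 to 29 at day 7, 5 to 20 for day 3 against day 1 and 0 to 18 for day 7 against day 3, where the full set gave 12, 20, 24, 13 and 9. The ML-792 comparisons gave 3 to 7 at day 1, 1 to 6 at day 3 and 0 to 14 at day 7, and the interaction 1 to 9. In labelled reads the ranges were 2 to 6, 1 to 7 and 3 to 8 at days 1, 3 and 7, 0 to 2 for day 3 against day 1, and 0 to 1, 0 to 1 and 1 to 2 for ML-792 at days 1, 3 and 7. DESeq2 called 17 members for day 7 against day 3, 5 for ML-792 at day 3, and in labelled reads 2 for ML-792 at day 1, 1 at day 7 and 2 for the interaction. All 24 libraries in the time course gave 14 for day 7 against day 3, and keeping entries with at least 10 reads gave 4 in labelled reads at day 1. Scaling by labelled reads gave 2, 5 and 2 at days 1, 3 and 7 and turned Hspa5 at day 3 to 0.0928 (edgeR adjusted p = 0.878). The replicate block gave 17 for day 7 against day 3, 11, 10 and 23 for ML-792 at days 1, 3 and 7 and 16 for the interaction, and in labelled reads 2 for ML-792 at day 1 and 1 for the interaction. The letters are not stated to pair samples, and deviations of same-letter libraries correlated at -0.173 to 0.523 (mean 0.191, against -0.0939 for different letters), so the block is a value beside the main one. Replicate B was the highest or the lowest in all 8 conditions for 12.8% of all tested genes. A model without the block leaves such differences in its error. The median labelled share at day -2, 2.03%, was 1.93 to 2.13% with a letter left out. Of the values of named members under all these settings 635 stayed on their side of the threshold, 156 no longer passed and 1 reversed. The cause was not tested. Low labelled counts limit every labelled test.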

Other observations

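Some members kept a fixed order of replicates through all 8 conditions, and they are named here after their values were seen. Replicate B was always the highest for Cct5, Dnajc1, Dnajc15, Dnajc18, Dnajc2, Hspa12a, Hspa2 and Hspa4 and always the lowest for Dnajc10, Dnajc11 and Hspb6. Replicate C was always the lowest for Hspa5, Hspb8 and Dnajc5. For B these make up 16.9% of the 65 tested members, beside 12.8% of all tested genes, and for C 9.23% (with Cct3, Dnajc10 and Dnajc8, always the highest) beside 2.01%.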
